A study of Homo sapiens with 8 samples.

Results

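The extracellular matrix is the network of secreted proteins that surrounds cells, and 50 of its genes were followed in PNT2 cells, an immortalized human prostate epithelial line. The list was drawn up by protein class with earlier results of these data known. Its shares of called genes below are thus descriptive and no independent evidence. A mean of at least 1 CPM (counts scaled to library size, with TMM factors) over the 8 RNA-seq libraries was reached by 46 of the 50 genes. The series holds 33791 genes with a matched transcript, of which 14653 passed the filter on low counts and were tested. *COL6A3*, *LOXL4*, *DCN* and *BGN* stayed below 1 CPM on average and were not analysed further. Of the 50 genes, 48 passed the filter, and the other two, *BGN* and *DCN*, were in no test. The means of *COL1A2*, *COL3A1*, *FBN2*, *EDIL3*, *POSTN* and *TLL1* fell below 1 CPM when their highest group was left out, so these 6 were analysed through that group.

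There were 4 groups of 2 libraries, replicates A and B. Parental PNT2 cells are called WT. PNT2 cells with ETS2 repressor factor (*ERF*) knockdown (KD) carried short hairpin RNAs under puromycin selection. PNT2 cells with Capicua (*CIC*) knockout (KO) carried CRISPR guides under blasticidin selection, and the *ERF* KD + *CIC* KO line carried both. All were lines grown in DMEM with 10% serum. What the letters A and B stand for (a hairpin, a guide, a culture or a day) is not given in the sources used here, so p-values measure the spread between these libraries, which may be technical.

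The targeted genes were checked first, and they went against the labels of the single-loss groups. The study's methods state that the stable lines were checked for CIC and ERF by qPCR and western blot, which is no measurement of these libraries. *ERF* was at 55.8 and 55.9 CPM in WT, at 81.2 and 77.8 CPM in the libraries labelled *ERF* KD, at 18.8 and 11.7 CPM in those labelled *CIC* KO and at 11.6 and 10.4 CPM in *ERF* KD + *CIC* KO. The low *ERF* mRNA of a single loss was thus found under the *CIC* KO label, and the group under the *ERF* KD label had more of it than WT. *CIC* was at 128 and 129 CPM in WT, 108 and 109 CPM in labelled *ERF* KD, 132 and 131 CPM in labelled *CIC* KO and 90.9 and 66.4 CPM in *ERF* KD + *CIC* KO. A guide-made deletion need not lower the mRNA, so *CIC* counts do not settle its label. The names of the 4 single-loss files also carry the opposite letters. The labels were kept, and every direction drawn from a single-loss group below is that of "the libraries labelled" so. The *ERF* KD + *CIC* KO group and the interaction term do not depend on which single-loss label is which.

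Collagens give the matrix its tensile strength, laminins, nidogens and collagen IV form the basement membrane beneath an epithelium, and proteoglycans such as versican fill the space between fibres. Fibronectin and the fibrillins are scaffolds on which other components assemble, and matricellular proteins act on cells more than they bear load. Enzymes of the lysyl oxidase family cross-link fibres, and those of the tolloid family trim procollagens. CIC and ERF are both repressors of transcription: CIC binds short TGAATGAA-like sites, and ERF, a member of the ETS family, binds sites built on GGAA.

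To show where such letters occur in the matrix genes, RefSeq promoter windows (GRCh38.p14, 250 bases before to 50 after the gene's start) were searched on both strands. Of the 46 genes, 35 had a window. *AGRN*, *CCN1*, *COL1A1*, *COL1A2*, *COL3A1*, *COL5A2*, *COL6A1*, *COL8A1*, *EFEMP1*, *LOXL2* and *MATN2* had none. An octamer of the CIC type (TGAATGAA, TGAATGGA, TCAATGAA or TCAATGGA) was found in 3 of the 35 (8.57%), in 3.86% of all 27305 windows and in 2.61% of the 10877 windows of genes tested. The 3 genes were *VCAN*, *CCN2* and *LOXL1*, and the 30 bases around each octamer, on the gene's strand with the octamer in capitals, are shown because these genes recur in the results.
VCAN: tttggagcctgTGAATGAAccctcctcctc
CCN2: ttgtgtaggacTCCATTCAgctcattggcg
LOXL1: cctgttgcttaTTCATTCAgagtgggaaag
The *VCAN* window is chr5:83471635-83471664 (plus strand), the *CCN2* window chr6:131951425-131951454 (minus strand) and the *LOXL1* window chr15:73926448-73926477 (plus strand). Counted from the start that RefSeq uses for the window, the octamer began 98 bases upstream in *VCAN*, on its own strand, and 71 and 3 bases upstream in *CCN2* and *LOXL1*, on the opposite strand. For *VCAN* and *LOXL1* that start lies inside the gene's GENCODE 29 span, whose own start is 181 and 470 bases before the octamer, so these octamers are upstream of the RefSeq start alone.

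The ETS core CCGGAA was found in 3 of the 35 windows (8.57%), those of *LAMA5*, *LAMB2* and *SPARC*, against 17.6% of all windows and 28.7% of those of genes tested. The shorter GGAA, which CCGGAA contains, was in 34 of 35 and in 95.5% of all windows. The CCGGAA of *LAMA5*, a gene described below, lies on the opposite strand, 191 bases upstream of the RefSeq start. On the gene's strand it reads TTCCGG, shown in capitals in the window chr20:62367486-62367515 (minus strand).
LAMA5: agcaggtgccccTTCCGGgaggcggccggg
A match of letters is a description and no measure of binding.

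The libraries held between 19477473 and 25813157 estimated counts, of which 93.2% to 93.3% lay on matched genes. The epithelial label was checked on 7 markers (*KRT5*, *KRT8*, *KRT18*, *KRT19*, *KRT14*, *EPCAM* and *CDH1*), of which 6 were above 1 CPM in both libraries of every group. Their summed level was 3794 to 4634 CPM in WT, 1645 to 2107 CPM in labelled *ERF* KD, 4049.6 to 5209.8 CPM in labelled *CIC* KO and 3932 to 5036 CPM in *ERF* KD + *CIC* KO. The sum was mostly *KRT8*, *KRT18* and *KRT19*. All 7 markers were lower in both libraries labelled *ERF* KD than in WT. *EPCAM*, *KRT5*, *CDH1* and *KRT14* fell more steeply than the sum. Mean CPM in WT and labelled *ERF* KD was 296 and 35.2 for *EPCAM*, 186 and 17.1 for *KRT5*, and 1483 and 803 for *KRT8*. The 9 fibroblast and smooth muscle markers summed to 47.2 to 51.8 CPM in WT, 46.8 to 84.8 CPM in labelled *ERF* KD, 38.7 to 41.4 CPM in labelled *CIC* KO and 31.1 to 32.4 CPM in *ERF* KD + *CIC* KO, with *LUM* at 0 in all libraries. The 5 endothelial markers summed to 4.72 to 68.7 CPM and the 5 leukocyte markers to 1.84 to 10.9 CPM.

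Counted per transcript length, as TPM (transcript abundance, scaled so that every library has an equal sum), the 50 genes together made up between 3090 and 4163 TPM of a library. *FN1*, encoding fibronectin, was the first of them in all libraries but the 2 labelled *ERF* KD, where *EFEMP1* led in replicate A and *THBS1* in replicate B. *FN1* made up 17.3% and 20.4% of the matrix TPM in WT, 9.44% and 9.43% in labelled *ERF* KD, 19.1% and 22.2% in labelled *CIC* KO and 14.0% and 18.5% in *ERF* KD + *CIC* KO. Its share was lowest in both libraries labelled *ERF* KD, which did not overlap with any other group.

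**Figure D1:**
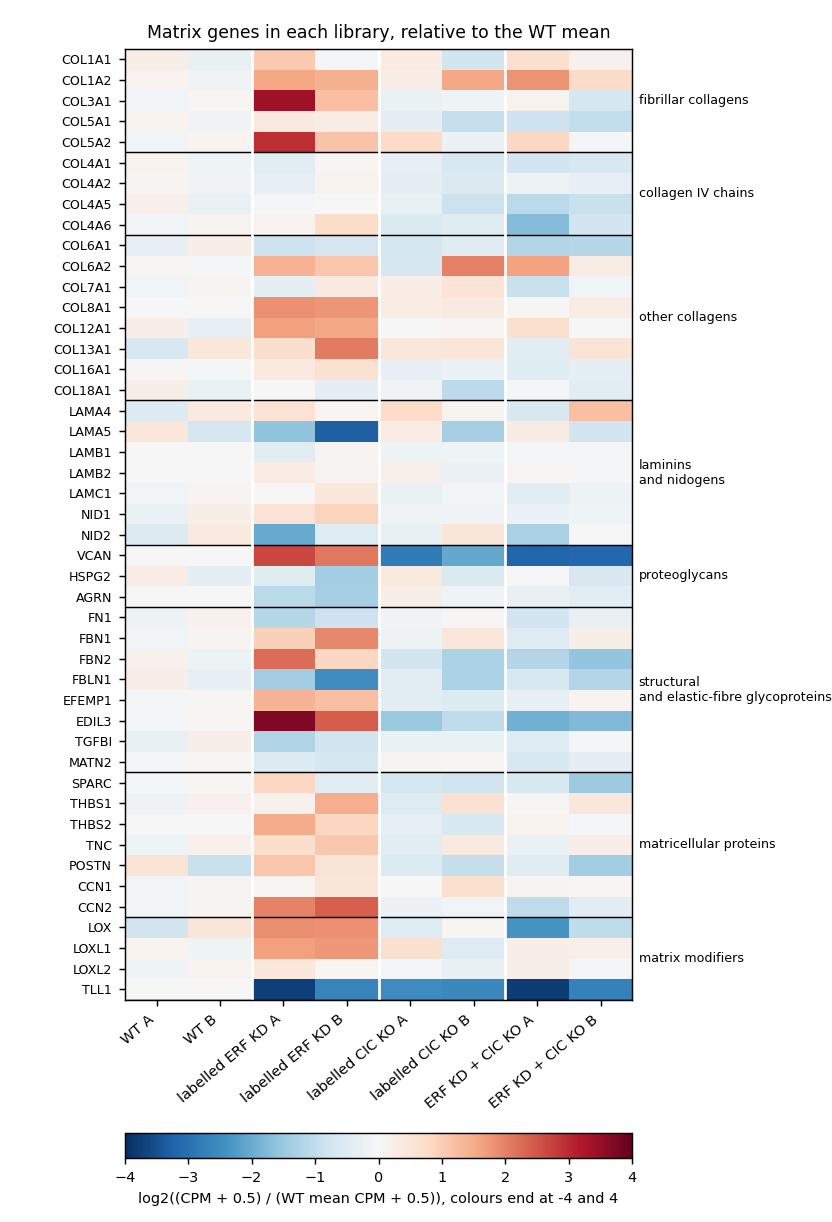
Each row is a matrix gene and each column a library, and the colour is log2((CPM + 0.5) / (WT mean CPM + 0.5)), red above and blue below the WT mean. The 2 columns labelled ERF KD hold most of the strong reds, *VCAN* and *EDIL3* turn from red there to blue in the other 2 altered groups, and *TLL1* is blue in all 6 altered libraries.

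The first question was how the matrix genes differed between the libraries labelled *ERF* KD and WT. Of the 46 genes, 19 passed the test (edgeR quasi-likelihood, Benjamini-Hochberg adjusted over all genes), 13 higher and 6 lower, against a background of 10.1% of all genes tested (4.01% higher and 6.07% lower). Of these 19, *COL3A1*, *EDIL3* and *TLL1* were analysed through their highest group only, which favoured the direction found. The median log2 fold change was 0.44 over the 46 genes and 0.01 over all genes tested. Groups did not overlap in 67.4% of the matrix genes and in 56.3% of all genes tested, so non-overlap was common in this comparison. The genes that rose included fibril-forming and fibril-associated collagens, versican, fibrillin-1, *EDIL3*, *CCN2* and a lysyl oxidase. Those that fell included agrin, fibronectin, fibulin-1 and tolloid-like 1. With the replicate letter as a block, 28 genes passed (18 higher and 10 lower), against 18.2% of all genes. The epithelial markers were at their lowest in the same libraries, and their part in these differences was not tested. In bulk RNA, fewer cells of a type and less RNA per cell cannot be told apart.

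**Figure D2:**
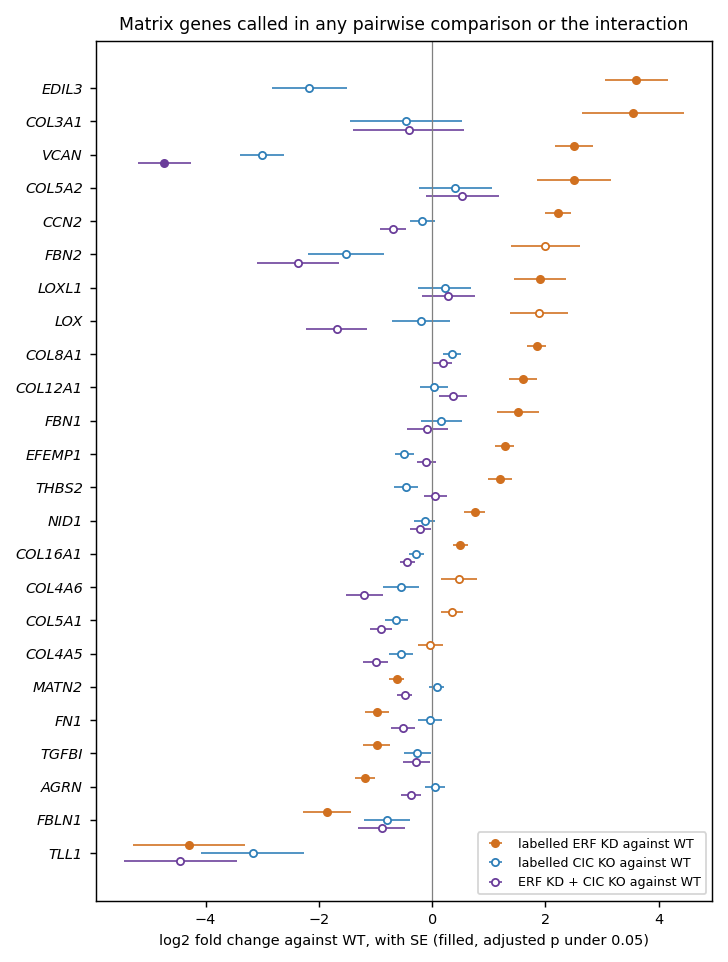
Points are log2 fold changes against WT with their standard errors for the 24 matrix genes called in a pairwise comparison or the interaction, coloured by group, with filled points at an adjusted p under 0.05. Filled points are frequent for labelled ERF KD, 0 for labelled CIC KO and 1, *VCAN*, for ERF KD + CIC KO, and *EDIL3* in ERF KD + CIC KO is left out because its counts were 0 and 1.

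Among the fibrillar collagens, *COL3A1* and *COL5A2* passed in labelled *ERF* KD. *COL3A1*, the collagen III chain, was at 0.427 and 0.561 CPM in WT and at 9.89 and 1.79 CPM in labelled *ERF* KD (log2 fold change 3.55, SE 0.90, edgeR adjusted p = 0.0432). *COL5A2*, a chain of collagen V, was at 2.66 and 3.16 CPM in WT and at 25.9 and 7.05 CPM in labelled *ERF* KD (log2 fold change 2.50, SE 0.65, edgeR adjusted p = 0.0477). The groups did not overlap, but replicate A stood far above replicate B in both genes. *PDGFRB*, one of the fibroblast and smooth muscle markers, was likewise far higher in replicate A of labelled *ERF* KD than in B. It was at 10.4 and 4.08 CPM in WT and at 36.4 and 6.90 CPM in labelled *ERF* KD, so its groups overlapped. *PDGFRB* was higher in A in every group, whereas the 2 collagens were lower in A in WT. Of the same list, *PDGFRA*, *THY1*, *TAGLN* and *MYH11* were above WT in both libraries labelled *ERF* KD, and *FAP* and *ACTA2* were below it. *FAP* was at 17.7 and 20.3 CPM in WT and at 13.7 and 12.3 CPM in labelled *ERF* KD. *LUM* was at 0 in all libraries, and *DES*, at 0 in both labelled *ERF* KD, was at 0 and 0.051 CPM in WT. The part of such cells in the collagen values was not tested. Without replicate A, the log2 fold changes were 1.85 (edgeR adjusted p = 0.27) and 1.28 (edgeR adjusted p = 0.237). Both calls were also lost without either WT library (edgeR adjusted p from 0.169 to 0.229), that of *COL3A1* without either library labelled *CIC* KO (0.0551 and 0.055), and that of *COL5A2* without either *ERF* KD + *CIC* KO library (0.0666 and 0.0661). On length-scaled counts neither passed (edgeR adjusted p = 0.0528 for *COL3A1* and 0.0614 for *COL5A2*), and *COL5A2* did not pass with limma either (adjusted p = 0.184 on the log2(TPM + 1) scale and 0.21 on log2(TPM + 0.1), the order kept below). *COL1A1*, *COL1A2* and *COL5A1* did not pass, and *COL1A1* overlapped between the groups, at 37.3 and 25.8 CPM in WT and 65.5 and 30.7 CPM in labelled *ERF* KD.

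None of the 4 collagen IV chains passed there. Their log2 fold changes lay between -0.16 and 0.48. Of the 8 other collagens, 3 rose. With the block *COL13A1* rose as well and *COL6A1* fell. *COL8A1*, a short-chain network collagen, was at 10.1 and 10.2 CPM in WT and at 37.1 and 36.0 CPM in labelled *ERF* KD (log2 fold change 1.85, SE 0.17, edgeR adjusted p = 0.000412). *COL12A1*, which lines the surface of collagen I fibrils, was at 248 and 166 CPM in WT and at 648 and 608 CPM in labelled *ERF* KD (log2 fold change 1.60, SE 0.25, edgeR adjusted p = 0.00551). *COL16A1*, another fibril-associated collagen, rose by less, with a log2 fold change of 0.50 (edgeR adjusted p = 0.0497), and lost its call when any single library was left out (edgeR adjusted p at least 0.0578), on length-scaled counts (0.0774) and with limma (adjusted p = 0.169 and 0.172).

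The basement membrane genes moved in both directions. *NID1*, which links laminin to collagen IV, was at 109.8 and 153 CPM in WT and at 196 and 246 CPM in labelled *ERF* KD (log2 fold change 0.75, SE 0.18, edgeR adjusted p = 0.037). *AGRN*, a heparan sulfate proteoglycan, was at 604 and 606 CPM in WT and at 288 and 241 CPM in labelled *ERF* KD (log2 fold change -1.19, SE 0.17, edgeR adjusted p = 0.00445). *LAMA5*, the laminin alpha chain of mature epithelial basement membranes, was at 529.7 and 244 CPM in WT and at 127 and 39.4 CPM in labelled *ERF* KD. The *LAMA5* groups did not overlap, yet the difference passed only with the replicate block (log2 fold change -2.34, edgeR adjusted p = 6.76e-05, against 0.0954 without it). *NID2* and *HSPG2*, encoding perlecan, also fell only with the block, with log2 fold changes of -1.18 and -0.89. The other laminin chains, *LAMA4*, *LAMB1*, *LAMB2* and *LAMC1*, passed in neither fit. Without WT replicate A, *NID1* had a log2 fold change of 0.52 (edgeR adjusted p = 0.243), and without labelled *ERF* KD replicate B one of 0.58 (edgeR adjusted p = 0.169). Its call was also lost, at edgeR adjusted p from 0.0508 to 0.0628, without any library labelled *CIC* KO or of *ERF* KD + *CIC* KO.

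*VCAN*, encoding the large proteoglycan versican, spans chr5:83471465-83582303 on the plus strand (GENCODE 29, GRCh38). It was at 5.94 and 5.91 CPM in WT, at 40.1 and 27.4 CPM in labelled *ERF* KD, at 0.418 and 1.06 CPM in labelled *CIC* KO and at 0.212 and 0.226 CPM in *ERF* KD + *CIC* KO. No 2 of the 4 groups overlapped, and the levels ran downwards from labelled *ERF* KD through WT and labelled *CIC* KO to *ERF* KD + *CIC* KO. *VCAN* rose in labelled *ERF* KD with a log2 fold change of 2.51 (SE 0.33, edgeR adjusted p = 0.00288) and fell in *ERF* KD + *CIC* KO with a log2 fold change of -4.73 (SE 0.47, edgeR adjusted p = 0.0157). With limma on log2(TPM + 0.1) the rise had an adjusted p of 0.0541, and the fall did not pass on either limma scale (adjusted p = 0.122 and 0.104). The log2 fold change of -3.00 in labelled *CIC* KO did not pass (edgeR adjusted p = 0.333), in a comparison where no gene of the whole table did. Counted in reads, WT had 241 estimated counts against 31 in labelled *CIC* KO, a ratio of 8.08 after scaling (95% interval 5.55 to 12.2), and against 9 in *ERF* KD + *CIC* KO, a ratio of 27.2 (14.1 to 60.3). These intervals cover counting error only. The 2 lowest groups did not differ beyond their spread in the test (log2 fold change -1.73, edgeR adjusted p = 0.466).

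*EDIL3*, which encodes an integrin-binding matrix glycoprotein, lies on the same chromosome, at chr5:83940554-84384793 on the minus strand, and ranked its groups in the same order. It was at 1.33 and 1.48 CPM in WT, 24.5 and 9.74 CPM in labelled *ERF* KD, 0.186 and 0.433 CPM in labelled *CIC* KO and 0 and 0.0564 CPM in *ERF* KD + *CIC* KO. The rise in labelled *ERF* KD had a log2 fold change of 3.60 (SE 0.55, edgeR adjusted p = 0.00535). It missed the threshold in limma's fit of log2(TPM + 0.1), at an adjusted p of 0.0534. In *ERF* KD + *CIC* KO there was 1 estimated count in all, under the floor of 3 counts per library, against 57 in WT. That is a scaled ratio of 58.0 with a counting interval of 9.99 to 2329. The difference from WT passed only with the replicate block (edgeR adjusted p = 0.0336, against 0.0897 without it).

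*TLL1*, encoding tolloid-like 1, a protease that trims procollagens, showed another pattern. It was at 6.98 and 6.73 CPM in WT, 0.0480 and 0.646 CPM in labelled *ERF* KD, 0.790 and 0.722 CPM in labelled *CIC* KO and 0.0423 and 0.620 CPM in *ERF* KD + *CIC* KO. Every altered library lay below both WT libraries, and the labelled *ERF* KD and *ERF* KD + *CIC* KO groups overlapped. The fall passed in labelled *ERF* KD (log2 fold change -4.29, SE 0.99, edgeR adjusted p = 0.0299), and in *ERF* KD + *CIC* KO with the block only (edgeR adjusted p = 0.036, against 0.126 without it). The scaled ratio of WT to labelled *ERF* KD was 20.1 (counting interval 11.8 to 37.2), that to labelled *CIC* KO 9.06 (6.27 to 13.5) and that to *ERF* KD + *CIC* KO 23.6 (13.3 to 46.3). Replicate A held 1 count in labelled *ERF* KD, and without that library the log2 fold change was -3.39 (edgeR adjusted p = 0.085). The call was lost without either WT library too (edgeR adjusted p = 0.108 and 0.0969). Limma on the log2(TPM + 0.1) scale gave it an adjusted p of 0.0516.

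**Figure D3:**
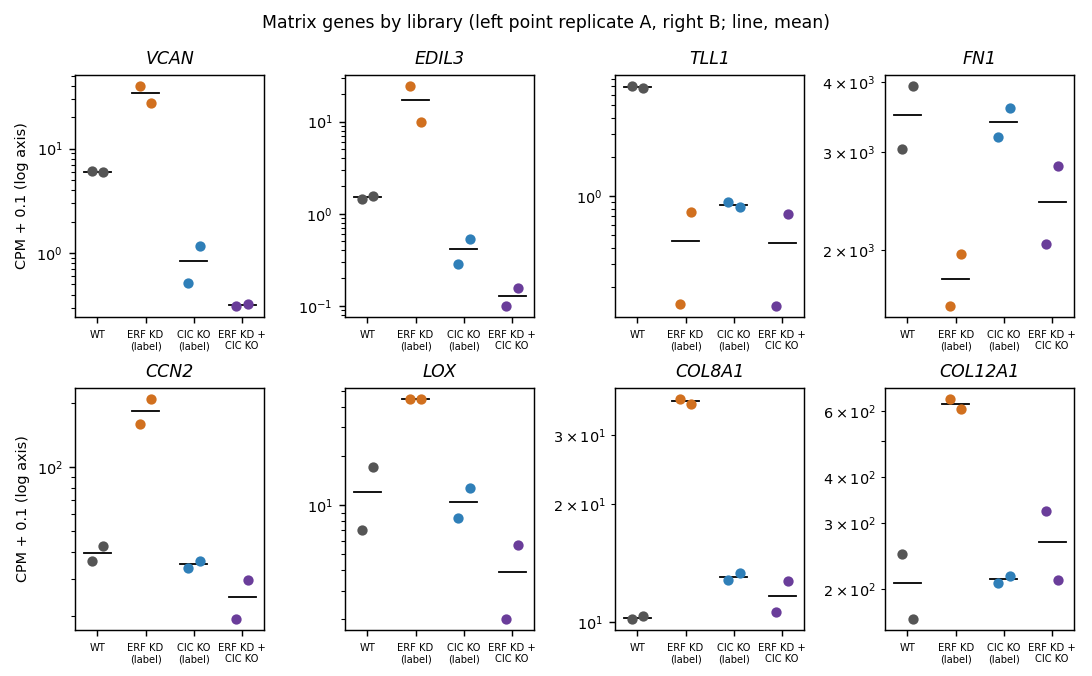
Each panel is a gene, with CPM + 0.1 on a log axis, replicate A left and B right in each group, and the line at the group mean. *VCAN*, *EDIL3*, *CCN2*, *LOX*, *COL8A1* and *COL12A1* are highest in both libraries labelled ERF KD, *FN1* is lowest there, and *TLL1* is high in WT alone.

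*FN1* was at 3038 and 3948 CPM in WT, 1587 and 1966 CPM in labelled *ERF* KD, 3185 and 3604 CPM in labelled *CIC* KO and 2053 and 2831 CPM in *ERF* KD + *CIC* KO. Labelled *ERF* KD was lowest and did not overlap with the other groups, while WT and labelled *CIC* KO overlapped. The fall in labelled *ERF* KD was by 0.98 on the log2 scale (SE 0.21, edgeR adjusted p = 0.0247). It was no longer called without WT replicate B, where the log2 fold change was -0.77 (edgeR adjusted p = 0.152), nor without either library labelled *ERF* KD (edgeR adjusted p = 0.123 and 0.0517). In *ERF* KD + *CIC* KO the log2 fold change of -0.52 passed with the block only (edgeR adjusted p = 0.0468, against 0.352 without it).

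Of the 8 structural and elastic-fibre glycoproteins, 7 passed in labelled *ERF* KD, 3 higher and 4 lower. With the block *FBN2* passed as well, higher, a gene analysed through labelled *ERF* KD only, which favoured that direction. *FBN1*, the fibrillin of elastic microfibrils, was at 87.0 and 100.4 CPM in WT and at 179.9 and 354 CPM in labelled *ERF* KD (log2 fold change 1.51, SE 0.37, edgeR adjusted p = 0.0381). *EFEMP1*, or fibulin-3, was at 239 and 255 CPM in WT and at 632 and 569.9 CPM in labelled *ERF* KD (log2 fold change 1.28, SE 0.17, edgeR adjusted p = 0.00256). Its relative *FBLN1*, fibulin-1, went the other way, from 191 and 124 CPM in WT to 59.5 and 27.5 CPM (log2 fold change -1.86, SE 0.42, edgeR adjusted p = 0.029). *TGFBI*, an adhesive protein bound to collagen, fell from 431 and 626 CPM to 229 and 306 CPM (log2 fold change -0.98, edgeR adjusted p = 0.0358), and *MATN2*, a matrilin, from 155 and 168 CPM to 111 and 98.2 CPM (log2 fold change -0.63, edgeR adjusted p = 0.0221). Members of a family thus differed in direction, and none of these groups overlapped with WT, which held for 56.3% of all genes tested. The calls of *FBN1* and *FBLN1* were lost without labelled *ERF* KD replicate B, at log2 fold changes of 0.94 and -1.40. *FBN1* also lost its call without either WT library (1.40 and 1.62), on length-scaled counts (edgeR adjusted p = 0.0661) and with limma (adjusted p = 0.0821 and 0.0869), and *FBLN1* without WT replicate A (-1.52). *TGFBI* lost its call without WT replicate B (-0.69) or either library labelled *ERF* KD (-0.78 and -1.20), and *MATN2* without any of the 4 libraries compared (-0.71 to -0.54).

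Among the 7 matricellular proteins, *CCN2* and *THBS2* rose. *CCN2*, or connective tissue growth factor, was at 36.3 and 42.6 CPM in WT, 158 and 209 CPM in labelled *ERF* KD, 33.7 and 36.4 CPM in labelled *CIC* KO and 19.3 and 29.7 CPM in *ERF* KD + *CIC* KO. Both libraries labelled *ERF* KD stood above all others (log2 fold change against WT 2.22, SE 0.23, edgeR adjusted p = 0.000748). *THBS2*, a thrombospondin, was at 137 and 140.4 CPM in WT and at 386 and 249.7 CPM in labelled *ERF* KD (log2 fold change 1.20, SE 0.21, edgeR adjusted p = 0.00917), a call that was lost without either WT library (edgeR adjusted p = 0.0721 and 0.0596). *CCN1*, the paralogue of *CCN2*, did not pass, at 374 and 432 CPM in WT and 429 and 568 CPM in labelled *ERF* KD. *THBS1* and *TNC* passed with the block only, with log2 fold changes of 0.83 and 0.90.

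Of the 4 matrix modifiers, *LOXL1*, a lysyl oxidase of elastic fibres, rose from 2.18 and 1.68 CPM in WT to 7.01 and 7.55 CPM in labelled *ERF* KD (log2 fold change 1.91, SE 0.46, edgeR adjusted p = 0.0357). This call was lost on length-scaled counts (edgeR adjusted p = 0.215), with limma (adjusted p = 0.221 and 0.292) and without any library of WT, labelled *ERF* KD or *ERF* KD + *CIC* KO (edgeR adjusted p from 0.061 to 0.192). *LOX*, the founding enzyme of that family, was at 6.93 and 17.0 CPM in WT and 44.5 and 44.2 CPM in labelled *ERF* KD, and passed with the block only (log2 fold change 2.05, edgeR adjusted p = 0.00342, against 0.0541 without it). *LOXL2*, at 274 and 339 CPM in WT and 407 and 327 CPM in labelled *ERF* KD, overlapped.

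The second comparison set the libraries labelled *CIC* KO against WT. None of the 46 genes passed in edgeR, and the background was 0% of the 14653 genes. At an unadjusted p under 0.05 there were 10 (*COL1A2*, *COL5A1*, *COL4A1*, *COL4A2*, *COL4A5*, *COL6A1*, *VCAN*, *EFEMP1*, *EDIL3* and *TLL1*), 9 of them lower, which is 21.7% against 4.01% of all genes tested. Of the lower ones, *TLL1* was analysed through WT only, which favoured that direction. DESeq2 called 1 and limma 0. The block called no matrix gene and 0.00682% of all genes. The median log2 fold change over the 46 genes was -0.18, against 0.01 over all genes. In 18 of the 46 genes both libraries labelled *CIC* KO lay below both WT libraries, and in 5 both lay above. Groups did not overlap in 50% of the matrix genes and in 32.2% of all genes tested.

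The third comparison was of *ERF* KD + *CIC* KO with WT. *VCAN* alone passed among the 46 genes, lower as given above, against a background of 0.0682% of all genes, and 15 genes (32.6%, against 13.3% of all genes) had an unadjusted p under 0.05. The *VCAN* call was lost without any 1 of the 4 libraries compared, at log2 fold changes between -4.77 and -4.68 and edgeR adjusted p between 0.0938 and 0.286. With the replicate block 11 genes passed, all lower, against 2.49% of all genes. These were *COL5A1*, *COL4A5*, *COL4A6*, *COL6A1*, *VCAN*, *FN1*, *FBN2*, *FBLN1*, *EDIL3*, *CCN2* and *TLL1*, the last analysed through WT only, which favoured its direction. Among the block calls, *COL4A6*, a basement membrane collagen chain, was at 29.8 and 34.3 CPM in WT and at 9.23 and 18.8 CPM in *ERF* KD + *CIC* KO (blocked log2 fold change -1.26, edgeR adjusted p = 0.0299). *COL6A1*, a chain of the beaded-filament collagen VI, was at 63.8 and 97.2 CPM in WT and at 35.7 and 36.6 CPM (blocked log2 fold change -1.13, edgeR adjusted p = 0.0162). The median over the 46 genes was -0.28, against 0.00 over all genes. Groups did not overlap in 54.3% of the matrix genes and in 49.5% of all genes tested.

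The next question was how *ERF* KD + *CIC* KO differed from each single-loss group. Against labelled *ERF* KD, 17 of the 46 genes passed, 1 higher and 16 lower, against a background of 11.7% of all genes (6.04% higher and 5.62% lower). The lower genes include *COL3A1*, *EDIL3* and *FBN2*, analysed only through labelled *ERF* KD, where they were high, which favoured that direction. Groups did not overlap in 67.4% of the matrix genes and in 53.4% of all genes tested. This comparison shares the libraries labelled *ERF* KD with the first, so the values of both are given side by side and not as separate evidence. The log2 fold changes against WT in labelled *ERF* KD and then of *ERF* KD + *CIC* KO against labelled *ERF* KD were 1.85 and -1.66 for *COL8A1*, 1.60 and -1.23 for *COL12A1*, 1.28 and -1.38 for *EFEMP1*, 1.20 and -1.14 for *THBS2* and 1.51 and -1.60 for *FBN1*. For these genes *ERF* KD + *CIC* KO was close to WT, with log2 fold changes against WT between -0.10 and 0.37, none of which passed. *AGRN* was the gene that was higher, at 491 and 442 CPM (log2 fold change 0.82, SE 0.17, edgeR adjusted p = 0.0203).

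Other genes went below WT in level. *CCN2* fell by 2.91 on the log2 scale from labelled *ERF* KD (SE 0.24, edgeR adjusted p = 0.000213) and *VCAN* by 7.24 (SE 0.47, edgeR adjusted p = 8.79e-05). *LOX*, at 1.90 and 5.64 CPM in *ERF* KD + *CIC* KO, fell by 3.58 (SE 0.56, edgeR adjusted p = 0.00554). *FBN2*, the fibrillin that predominates in development, was at 1.76 and 1.22 CPM in WT, 8.93 and 3.03 CPM in labelled *ERF* KD, 0.697 and 0.337 CPM in labelled *CIC* KO and 0.381 and 0.169 CPM in *ERF* KD + *CIC* KO (log2 fold change against labelled *ERF* KD -4.37, SE 0.72, edgeR adjusted p = 0.00681). Its 4 groups did not overlap in pairs except for the 2 lowest. For *EDIL3* the scaled ratio of labelled *ERF* KD to *ERF* KD + *CIC* KO was 714 (counting interval 128 to 28245). *COL5A1*, a chain of collagen V, was at 664 and 614 CPM in labelled *ERF* KD and at 284 and 253 CPM in *ERF* KD + *CIC* KO (log2 fold change -1.25, SE 0.20, edgeR adjusted p = 0.00583). Of these 17 calls, *AGRN*, *COL3A1* and *NID1* lost theirs without either *ERF* KD + *CIC* KO library and 1 of those labelled *ERF* KD, *THBS2* without either *ERF* KD + *CIC* KO library and *COL4A5* without any of the 4 libraries compared. *COL4A6* and *FBN1* lost theirs without labelled *ERF* KD replicate B (-1.34 and -1.03) or *ERF* KD + *CIC* KO replicate A (-1.24 and -1.26), *COL12A1* without labelled *ERF* KD replicate A (-1.19) or *ERF* KD + *CIC* KO replicate B (-0.96), and *FBN2* without the latter (-3.95). On length-scaled counts *AGRN* (edgeR adjusted p = 0.0591), *COL3A1* (0.0557) and *COL4A5* (0.0818) did not pass, and with limma neither did *AGRN* (adjusted p = 0.123 and 0.125), *COL4A5* (0.152 and 0.153) and *COL16A1* (0.0604 and 0.0612). With the block 30 genes passed, 7 higher and 23 lower, against 20.6% of all genes.

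Against labelled *CIC* KO none of the 46 genes passed in edgeR or DESeq2, the background was 0%, and 10 (21.7%, against 8.30% of all genes) had an unadjusted p under 0.05. Limma also called 0. With the block none passed either, against 0.334% of all genes. The interaction term, which asks whether the 2 single-loss differences add up to the one seen in *ERF* KD + *CIC* KO, was called for 5 matrix genes, all lower, against 4.15% of all genes (2.67% higher and 1.48% lower). They were *VCAN*, *EDIL3*, *CCN2*, *LOX* and *COL8A1*, of which *EDIL3* was analysed only through labelled *ERF* KD. With the block 20 passed, 5 higher (*LAMA5*, *HSPG2*, *AGRN*, *FBLN1* and *TGFBI*) and 15 lower, against 9.55% of all genes. The test for any difference among the 4 groups called 19 genes, against 9.04% of all genes, and 33 with the block, against 18.7%.

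Several matrix proteins are assembled from chains of separate genes, so the chains were compared per length. Collagen I is built of *COL1A1* and *COL1A2* products, and the ratio of their TPM ran from 13.0 to 315 over the 8 libraries with a median of 74.5. *COL1A2* was at 0.285 and 0.153 CPM in WT, close to the floor of detection. The ratio of *COL5A1* to *COL5A2* ran from 19.7 to 146 (median 74.4), and that of *COL6A1* to *COL6A2* from 11.2 to 291 (median 33.1). In each of these pairs the second chain had the lower TPM in every library. The basement membrane pair *COL4A1* and *COL4A2*, neighbours on chromosome 13 whose annotated ends overlap, kept a ratio between 0.326 and 0.503. *COL4A5* and *COL4A6*, neighbours on chromosome X, kept one between 1.75 and 5.81.

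**Figure D4:**
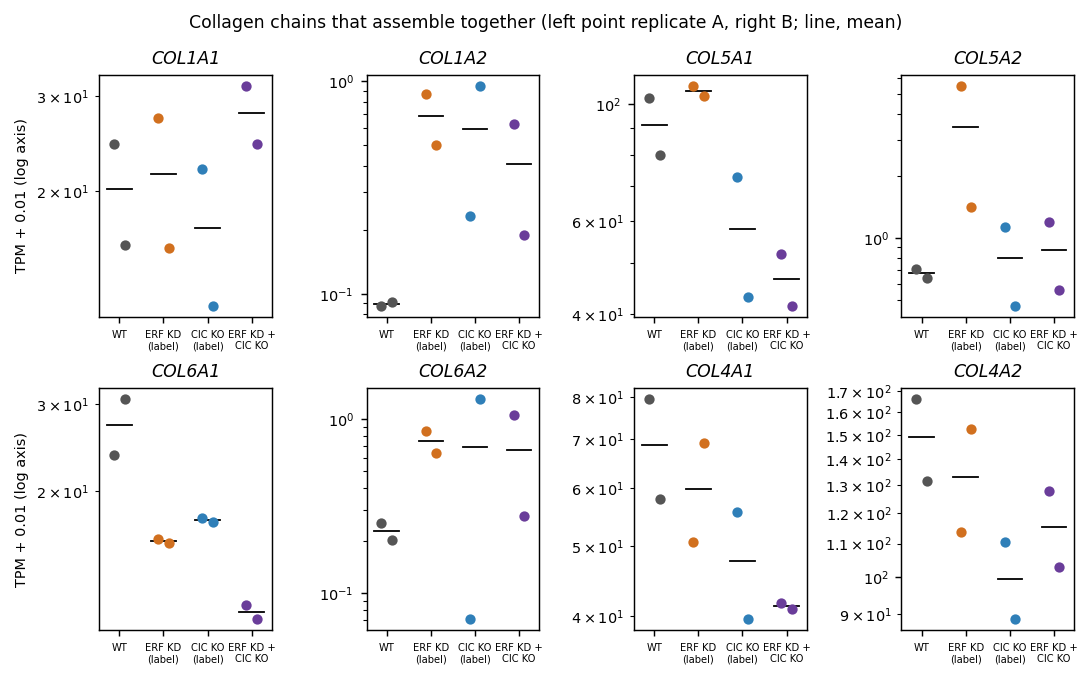
Panels give TPM + 0.01 on log axes for chains of collagens I, V, VI and IV, with replicate A left and B right in each group and lines at the means. *COL1A2*, *COL5A2* and *COL6A2* lie far below their partners and scatter widely between replicates, and *COL4A1* and *COL4A2* are both abundant.

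A part of the variation among the matrix genes went with the replicate letter. In 9 of the 46 genes replicate A was above replicate B in all 4 groups and in 12 it was below, together 45.7%, against 30.5% of all genes tested. *LAMA5* was 2.14 to 3.22 times as high in A as in B. *HSPG2* was 1.55 to 1.98 times and *FBLN1* 1.46 to 2.17 times as high in A. *NID2* was 1.75 to 2.83 times and *THBS1* 1.32 to 2.44 times as high in B. Within letter A the log2 ratio of labelled *ERF* KD to WT was -2.06 for *LAMA5*, and within letter B it was -2.63. For *NID2* these values were -1.47 and -0.93, and for *HSPG2* -0.79 and -0.99.

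**Figure D5:**
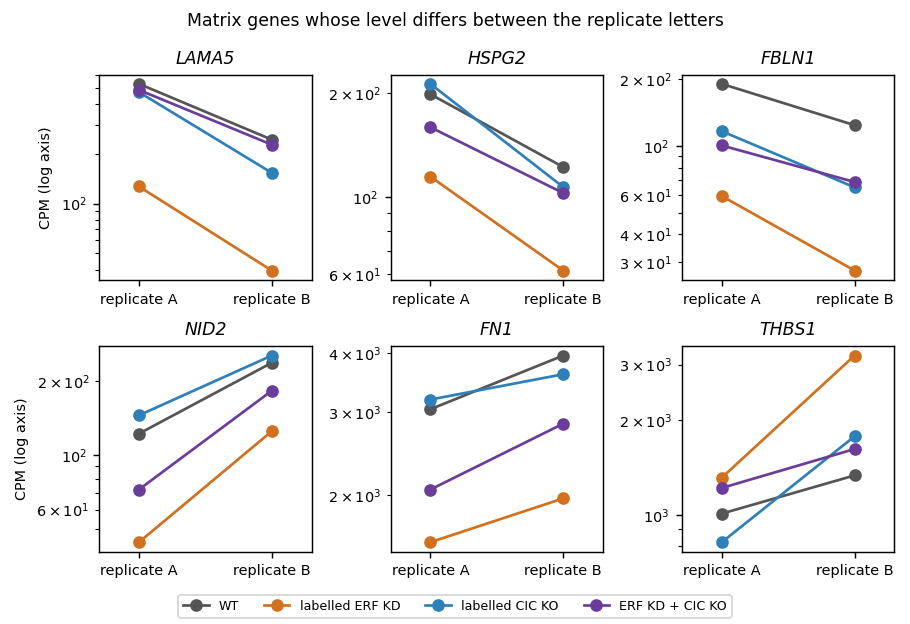
Lines join replicate A to replicate B within each group, with CPM on log axes. *LAMA5*, *HSPG2* and *FBLN1* are higher in A in all 4 groups, *NID2*, *FN1* and *THBS1* are higher in B, and the labelled ERF KD line lies lowest for all but *THBS1*.

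A pair of further lists, written out with the matrix genes, held the enzymes and chaperones that fold and process collagen and the cell-surface receptors for the matrix. Of 22 machinery genes, 20 passed the filter on low counts and 19 reached a mean of 1 CPM. In labelled *ERF* KD against WT 2 of the 20 passed (10.0%, against the 10.1% of all genes), both higher. With the block 6 passed (30%, against 18.2% of all genes), 5 higher and 1 lower. *P4HA3*, a prolyl 4-hydroxylase subunit, was at 3.51 and 3.72 CPM in WT and 14.9 and 20.9 CPM in labelled *ERF* KD (log2 fold change 2.30, SE 0.27, edgeR adjusted p = 0.00157). *P3H1*, a prolyl 3-hydroxylase, was at 37.2 and 38.3 CPM and at 68.3 and 63.3 CPM (log2 fold change 0.80, SE 0.12, edgeR adjusted p = 0.00484). Both fell again in *ERF* KD + *CIC* KO against labelled *ERF* KD, with *CRTAP*, the partner of *P3H1* (3 of 20 or 15% lower, 0 higher, against the 11.7% of all genes). With the block 4 of 20 were lower there (20%, against 20.6% of all genes) and 0 higher. The median of the 20 genes in labelled *ERF* KD was 0.14.

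Of 26 receptor genes, 22 passed the filter and 21 reached a mean of 1 CPM. In labelled *ERF* KD 5 of the 22 passed (22.7%, against the 10.1%), 3 higher and 2 lower. With the block 8 passed (36.4%, against 18.2% of all genes), 4 higher and 4 lower. *ITGB3*, the integrin beta chain of vitronectin receptors, was at 3.56 and 4.79 CPM in WT, 23.8 and 14.8 CPM in labelled *ERF* KD, 6.18 and 6.54 CPM in labelled *CIC* KO and 0.889 and 0.789 CPM in *ERF* KD + *CIC* KO. It rose in labelled *ERF* KD (log2 fold change 2.21, SE 0.30, edgeR adjusted p = 0.00317). *ITGB6*, the beta chain of an epithelial integrin, fell from 36.1 and 56.3 CPM in WT to 2.11 and 4.22 CPM (log2 fold change -3.87, SE 0.46, edgeR adjusted p = 0.00157). *ITGA11* and *ITGA1*, alpha chains of collagen receptors, rose with log2 fold changes of 3.68 and 0.78, and *DDR1*, a collagen-binding receptor kinase, fell with one of -1.07 (edgeR adjusted p = 0.02, 0.0148 and 0.0132). *ITGA11* had a mean of 0.418 CPM, and of 0.112 CPM without its highest group, so it was tested through labelled *ERF* KD, where it was high. Against labelled *ERF* KD, 6 of the 22 receptors (27.3%, against the 11.7%) passed in *ERF* KD + *CIC* KO, 2 higher (*ITGB6* and *DDR1*) and 4 lower (*ITGA1*, *ITGA5*, *ITGA11* and *ITGB3*). With the block 13 passed there (59.1%, against 20.6% of all genes), 4 higher and 9 lower. No receptor or machinery gene passed in the other 2 comparisons with WT. With the block 4 of the 22 receptors (18.2%, against 2.49% of all genes) were lower in *ERF* KD + *CIC* KO than in WT. They were *ITGA5*, *ITGA6*, *ITGB1* and *ITGB3*. Of the 20 machinery genes, *ADAMTS3* alone passed there (5%), also lower. It had a mean of 0.657 CPM, and of 0.344 CPM without WT, its highest group, which favoured that direction. Against labelled *CIC* KO, *ITGB3* alone of the 22 receptors passed with the block (4.55%, against 0.334%), lower in *ERF* KD + *CIC* KO.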

How the data were processed

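RNA-seq libraries of PNT2 cells were made by a sequencing company. The authors deposited, for each of 8 libraries, estimated counts per transcript (not normalized) with transcript lengths, and TPM, scaled by length and depth. The authors' methods name RSEM, whereas the tables have kallisto's columns. The submitters' processing notes name hg19. The kallisto version and annotation are not given in the sources used here. Of 180253 transcripts, 153245 (85.0%) matched GENCODE 29 by identifier. Their counts were summed per gene and rounded. Strand was not stated, so overlapping genes such as *COL4A1* and *COL4A2*, and near-identical copies, carry added uncertainty.

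Counts were scaled by TMM, filtered (filterByExpr, 14653 genes) and tested with edgeR 4.0.16 (quasi-likelihood, R 4.3.3) in a single fit of the 4 groups, with Benjamini-Hochberg adjustment over all genes tested and calls at an adjusted p under 0.05. The script was tested on simulated counts. Alternatives were DESeq2 1.42.0, no filter, length-scaled counts, a block on the replicate letter, limma 3.58.1 on log2(TPM + 1) and log2(TPM + 0.1), and each library left out. The A minus B differences correlated between groups (r from 0.136 to 0.335 for the 6 pairs), over the 0.1 at which letters were taken to pair libraries. The fit reported has no block. Blocked values are given beside it for many calls and counts, and not every call that the block changed is listed by gene. No source says what a letter is. The floor of detection was 3 counts per library, and ratios of low counts have exact 95% binomial intervals that cover counting error only.

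All 50 genes may be named, with values per library for *VCAN*, *FN1*, *EDIL3*, *TLL1* and the called genes with the largest changes (up to 12 a comparison, and up to 5 a pathway list). Members and lists were chosen with earlier results of these data known. A gene of the epithelial marker list is not reported here.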

Additional observations from a re-analysis of the deposited data

Results flagged for a closer look

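For 5 matrix genes the interaction term passed (edgeR quasi-likelihood, Benjamini-Hochberg adjusted over all genes). In these genes *ERF* KD + *CIC* KO lay below the level to which the 2 single-loss differences add up. Whether the losses themselves made these differences was not tested. The interaction term compares lines of 2 libraries each and shares those labelled *ERF* KD with comparisons above, so it is no separate evidence. Its log2 value was -4.24 for *VCAN* (SE 0.63, adjusted p = 0.00992), -2.74 for *CCN2* (SE 0.32, adjusted p = 0.00312), -3.38 for *LOX* (SE 0.74, adjusted p = 0.0452) and -2.01 for *COL8A1* (SE 0.23, adjusted p = 0.00315). For *EDIL3* it was -6.97 (adjusted p = 0.0206), a fitted value that depends on the prior count, since *ERF* KD + *CIC* KO held 0 and 1 counts. In each of the 5 genes both libraries labelled *ERF* KD were above WT, and both *ERF* KD + *CIC* KO libraries were below labelled *ERF* KD. Without *ERF* KD + *CIC* KO replicate A, *VCAN* (-4.18, adjusted p = 0.0643), *EDIL3* (-5.93, adjusted p = 0.0977) and *LOX* (-2.77, adjusted p = 0.122) lost the call. *EDIL3* also lost it without WT replicate A or labelled *CIC* KO replicate B and with limma (-2.33, adjusted p = 0.095, and -4.16, adjusted p = 0.134), and *LOX* without any library but WT replicate B and *ERF* KD + *CIC* KO replicate B. *CCN2* and *COL8A1* passed under all alternatives run.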

How the results depend on the processing

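Of 42 gene values called in the pairwise comparisons and the interaction, 14 kept their call under all alternatives run and 0 changed sign. All 42 kept it with DESeq2, with no filter and with the replicate block. The counts of matrix genes called moved more. For labelled *ERF* KD against WT the count of 19 became 31 with no filter and 12 with limma on log2(TPM + 0.1), and ran from 10 to 18 with a library left out. For labelled *CIC* KO against WT the count of 0 became 1 with DESeq2 and 4 with no filter. For *ERF* KD + *CIC* KO against WT the count of 1 became 8 with DESeq2, 13 with no filter, 11 with the replicate block and 0 with limma on either scale, and ran from 0 to 1 with a library left out. Against labelled *ERF* KD the count of 17 became 31 with no filter and 30 with the replicate block, and ran from 10 to 19 with a library left out. Against labelled *CIC* KO the count of 0 became 4 with no filter. For the interaction the count of 5 became 13 with DESeq2, 23 with no filter and 20 with the replicate block, and ran from 2 to 6 with a library left out. For any difference among the groups the count of 19 became 37 with no filter, 33 with the replicate block and 12 with limma on log2(TPM + 0.1), and ran from 10 to 18 with a library left out. Shares of all genes tested moved too. For labelled *ERF* KD against WT they were 10.1% in the fit reported, 11.6% with no filter and 6.53% with limma on log2(TPM + 0.1). For labelled *CIC* KO against WT they were 0%, 0.159% with DESeq2 and 0.554% with no filter, and for *ERF* KD + *CIC* KO against WT 0.0682%, 2.44% with DESeq2, 3.46% with no filter, 2.49% with the block and 0.021% with limma. Against labelled *ERF* KD they were 11.7%, 12.6% with no filter and 20.6% with the block, and against labelled *CIC* KO 0% and 1.92% with no filter. For the interaction they were 4.15%, 7.54% with DESeq2, 7.41% with no filter and 9.55% with the block, and for any difference 9.04%, 14.8% with no filter, 18.7% with the block and 5.26% with limma on log2(TPM + 0.1). The cause of these shifts was not tested. The difference of *FN1* between labelled *CIC* KO and WT, -0.04 on the log2 scale and not called, changed sign on length-scaled counts (0.049) and with limma (0.0077 on both scales), and ran from -0.22 to 0.16 with a library left out, where it was above 0 without WT replicate B and without labelled *CIC* KO replicate A (0.045). A lone library left in a group was assumed to vary like the other groups. Depth limits *VCAN*, *EDIL3*, *TLL1*, *FBN2*, *POSTN*, *COL1A2*, *COL3A1* and *COL6A2*, which were under 1 CPM in several libraries.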

Other observations

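Fibronectin is made with or without 2 alternative exons (the EDA segment, chr2:215380811-215381080 and the EDB segment, chr2:215392931-215393203, both GENCODE 29, GRCh38). Among the 10 annotated *FN1* transcripts of at least 6000 bases, 5 hold the former and 3 the latter. Transcripts with the EDA exon made up 58.6% and 61.5% of the TPM of these 10 in WT, 46.2% and 56.8% in labelled *ERF* KD, 54.3% and 63.8% in labelled *CIC* KO and 65.6% and 62.0% in *ERF* KD + *CIC* KO. Both libraries labelled *ERF* KD were below WT and both *ERF* KD + *CIC* KO libraries above it. Those with the EDB exon made up 5.07% to 10.9% over the 8 libraries. These shares are estimates from reads divided among transcripts and were not tested.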
